A study of Mus musculus with 10 samples.

Results

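The 10 genes described here encode citrate synthase, the NADP-dependent isocitrate dehydrogenases, the malate dehydrogenases, the malic enzymes, the aspartate aminotransferases and the oxoglutarate-malate carrier, which together move carbon and reducing equivalents between the cytosol and the mitochondria. They were chosen by name (Cs, Idh1, Idh2, Mdh1, Mdh2, Me1, Me2, Got1, Got2 and Slc25a11) from 57825 genes listed in the series, and all 10 were among the 15710 genes that averaged 0.5 FPKM or more over the samples, the level from which genes were tested. FPKM are fragments relative to gene length and to the fragments of the sample, so levels can be compared between genes of different length. RNA was sequenced from purified CD8+ T cells in 10 samples, 5 labelled CD8+4T1 and 5 labelled CD8+4T1+NaAc, all at day 3. In both groups the cells came from spleens of female Balb/c mice aged 7 to 8 weeks, were enriched with magnetic beads, were activated for 12 h with anti-CD3, anti-CD28 and IL-2, and were then kept with 4T1 cells, a mouse mammary carcinoma line, for 48 h. Sodium acetate (NaAc, 5 mM) was given to the CD8+4T1+NaAc group only, for 24 h before the co-culture. Whether it was also present during the co-culture is not given in the sources used here. Nothing in the labels ties a sample to an animal or culture, so the p-values measure the spread between these samples, which may be partly technical.

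Each enzyme pair here has a cytosolic and a mitochondrial form encoded by separate genes. In the malate-aspartate shuttle, Mdh1 reduces oxaloacetate to malate in the cytosol with NADH, Slc25a11 exchanges malate for 2-oxoglutarate across the inner mitochondrial membrane, Mdh2 regenerates NADH inside, and Got2 and Got1 return the carbon skeleton as aspartate. Cs condenses acetyl-CoA with oxaloacetate to citrate, and the NADP-dependent enzymes Idh1 and Me1 in the cytosol and Idh2 in the mitochondria make NADPH from isocitrate or malate. Activated T cells are known to use these routes to keep glycolysis running and to supply aspartate for nucleotide synthesis.

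Sequencing depth was alike in the groups, with 16306447 to 17443395 fragments behind the scaling of the CD8+4T1 samples and 16503701 to 18853726 behind the CD8+4T1+NaAc samples. The share of those fragments that fell in listed genes was 95.5 to 97.9% without and 89.8 to 92.1% with sodium acetate, and the FPKM of all listed genes summed to less in the treated group. Rescaling every sample to the same total moved the median over all genes tested, on the log2 scale, from -0.02 to 0.15, and scaling to 12 T cell markers moved it to 0.19. The genes called higher and lower were 2764 and 2978 as deposited, 4900 and 1387 after rescaling to the same total, and 5064 and 1047 after scaling to T cell markers. CD8+4T1+NaAc replicate 1 stood apart with 20233 genes above 0, against 24681 to 25088 in the other samples of its group, and results that rest on it are given with and without it. The cells carried the lineage marker of their label. Cd8a, a subunit of the CD8 coreceptor, was at 78.6 ± 2.34 FPKM in CD8+4T1 and 76.5 ± 4.37 in CD8+4T1+NaAc (SD, n = 5 each). Other T cell markers were lower with sodium acetate: of 12, all tested, 7 fell and 1 rose, with a median log2 fold change of -0.28. As these are bulk samples, fewer cells of a type and less RNA per cell cannot be told apart.

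The promoters of the 3 members with a cytosolic product that rose with sodium acetate, Me1, Idh1 and Mdh1, and of Got1, the cytosolic member that fell, are shown here from RefSeq (GRCm38.p6, minus strand) because the groups of samples differed in their transcripts. Each window runs 5′ to 3′ from 200 bases before to 24 bases after the annotated start, the start being counted as 0, and capitals mark matches on either strand to the motifs named after them. RefSeq lists more than a single start for Me1 and for Idh1, and the outermost is shown.
Me1, chr9:86695890-86696114: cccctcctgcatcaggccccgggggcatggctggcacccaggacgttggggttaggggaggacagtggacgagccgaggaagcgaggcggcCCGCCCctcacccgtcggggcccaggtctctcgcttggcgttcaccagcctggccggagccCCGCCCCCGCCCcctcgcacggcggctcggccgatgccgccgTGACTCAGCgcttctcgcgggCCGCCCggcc
Idh1, chr1:65186455-65186679: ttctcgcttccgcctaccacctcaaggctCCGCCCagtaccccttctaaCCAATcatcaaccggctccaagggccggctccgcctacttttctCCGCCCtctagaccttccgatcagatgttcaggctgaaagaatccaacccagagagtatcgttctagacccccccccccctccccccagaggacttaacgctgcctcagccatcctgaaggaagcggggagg
Mdh1, chr11:21571910-21572134: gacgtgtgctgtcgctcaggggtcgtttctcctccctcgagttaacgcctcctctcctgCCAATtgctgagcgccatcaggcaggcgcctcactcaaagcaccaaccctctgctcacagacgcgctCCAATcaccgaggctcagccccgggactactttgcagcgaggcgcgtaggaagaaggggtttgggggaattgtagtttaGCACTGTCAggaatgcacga
Got1, chr19:43524581-43524805: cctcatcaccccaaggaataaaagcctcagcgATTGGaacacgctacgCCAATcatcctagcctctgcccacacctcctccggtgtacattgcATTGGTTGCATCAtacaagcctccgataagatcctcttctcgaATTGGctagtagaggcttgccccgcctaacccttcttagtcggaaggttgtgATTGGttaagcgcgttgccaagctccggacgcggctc
The Me1 window holds the antioxidant response element core (TGACNNNGC) as TGACTCAGC from base -6 to 2, and Mdh1 holds it on the other strand as GCACTGTCA from base 5 to 13. Among 32851 RefSeq promoters of 300 bases, 12.4% hold this core, and so do 2 of the 11 promoter entries of the 9 members that have any, 1 of Me1 and that of Mdh1. Got1 holds the C/EBP-ATF response element core (TGATGNAA) on the other strand as TTGCATCA from base -102 to -95, directly after a CCAAT box that shares no base with it. That core is in 3.97% of all promoters and in 1 of the 11 entries. CCAAT boxes (CCAAT) occur in 7 of the 11 and in 37.4% of all promoters, and GC boxes (GGGCGG) in 8 of the 11 and in 35.7% of all promoters. The CCAAT box of Me1 is in its other entry, not in the one shown. Got2 has neither box in these 300 bases, Got1 has no GC box and Mdh2 no CCAAT box. The sterol regulatory element TCACNCCAC (1.24% of all promoters), the E-box CACGTG (7.15%) and the NRF1 core CGCATGCG (1.87%) were matched in none of the 11. Each motif was searched on both strands over all 300 bases of every promoter entry of a gene, so a match may lie outside the window shown. A match to letters is a description of sequence and was not tested for binding.

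With sodium acetate, 8 of the 10 genes differed at an adjusted p under 0.05 (limma, Benjamini-Hochberg adjustment over all genes tested), 6 of them higher (Me1, Idh1, Idh2, Mdh1, Cs and Got2) and 2 lower (Me2 and Got1). This is read against all genes tested, of which 36.5% were called, 17.6% as higher and 19.0% as lower. The 10 were chosen with earlier results of these data known, so this comparison is description only. Me1 passed the level filter only through its treated samples, so its place among the 6 is likewise description only. After rescaling to the same total 7 of the 10 were called higher and 1 lower, beside 31.2% and 8.83% of all genes. After scaling to T cell markers 8 were higher and 0 lower, beside 32.2% and 6.66% of all genes. Without CD8+4T1+NaAc replicate 1, 8 were called higher and 2 lower, beside 21.6% and 22.7% of 15626 genes tested. The values of the groups did not overlap for 6 of the 10 genes, 4 higher and 2 lower, against 26.4% of all genes tested (13.1% higher, 13.3% lower). The 10 had a median log2 fold change of 0.22, beside -0.02 over all genes tested. Rises spanned more than the falls: the cytosolic NADPH-making enzymes Me1 and Idh1 rose the most, from the lowest levels of the 10, whereas the falls of Me2 and Got1 were from 20.2 and 39.6 FPKM by less than 0.4 on the log2 scale. In the sums over the 10 genes, CD8+4T1 samples lay between 320 and 327 FPKM and CD8+4T1+NaAc samples between 301 and 389, with replicate 1 the lowest. The plot of all samples shows each gene's values.

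**Figure D1:**
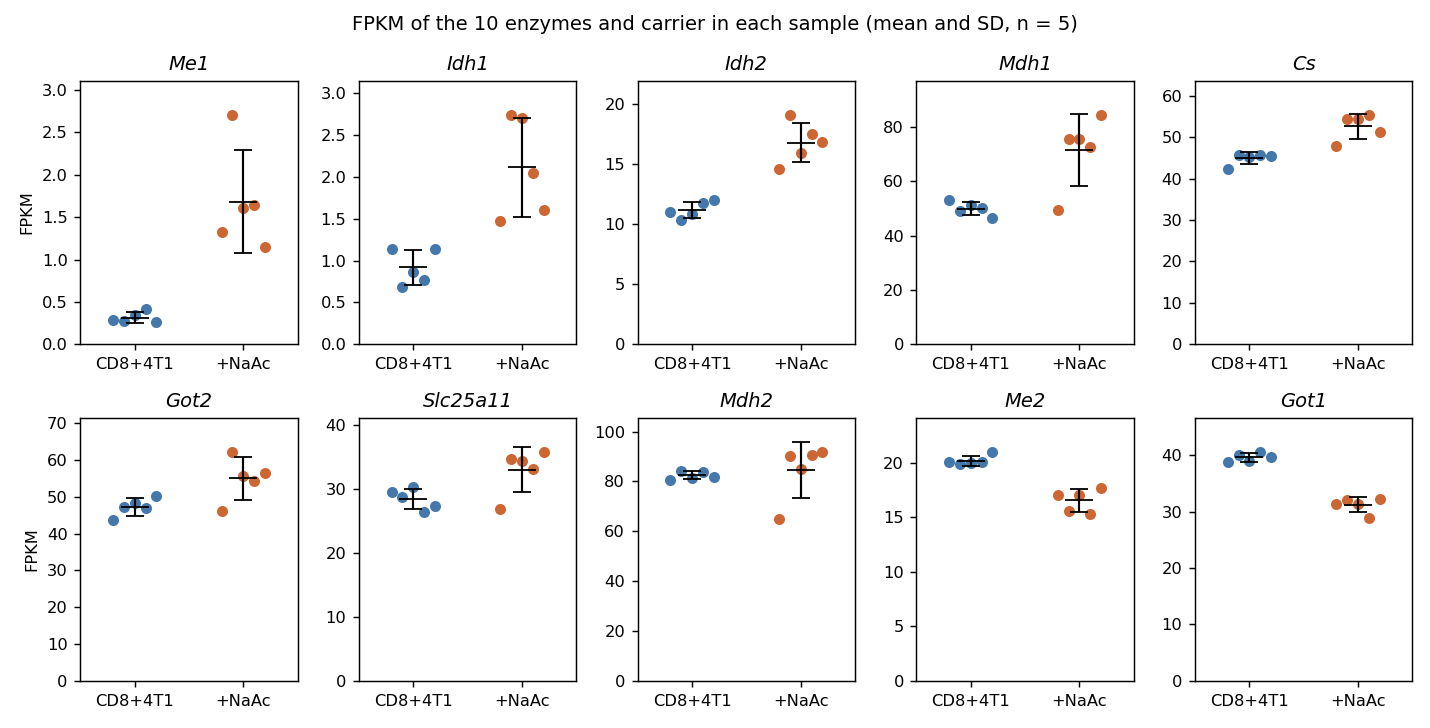
FPKM of the 10 genes in each sample (blue points, 5 CD8+4T1 samples in the order of replicate number; orange points, 5 CD8+4T1+NaAc samples likewise; black lines, mean and SD), each panel on its own axis from 0. The groups stand apart in Me1, Idh1, Idh2, Cs, Me2 and Got1, and CD8+4T1+NaAc replicate 1 is the lowest treated sample in 7 of the 10 panels.

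Me1 (ENSMUSG00000032418, chr9:86463424-86578006, minus strand, in the deposited table's unnamed build), the cytosolic NADP-dependent malic enzyme that decarboxylates malate to pyruvate, showed the largest change of the 10. Its FPKM were 0.280, 0.268, 0.351, 0.410 and 0.268 in CD8+4T1 replicates 1 to 5 and 1.32, 2.70, 1.61, 1.64 and 1.14 in CD8+4T1+NaAc replicates 1 to 5. Every treated sample was above every untreated sample, and replicate 2 was the highest. The means were 0.315 ± 0.0632 and 1.68 ± 0.606 FPKM (SD, n = 5). This is a rise of 2.06 (log2, SE 0.24, limma adjusted p = 0.000118) on the log2(FPKM + 0.1) scale. The untreated values rest on 17 to 26 fragments and the treated ones on 73 to 196, and since the added 0.1 is not small beside the untreated level, the log2 fold change was 1.003 with 1 FPKM added in its place. The untreated mean was below the 0.5 FPKM of the level filter, which Me1 passed only through its treated samples. Its call and its place among the genes called higher are therefore description only. With no level filter the limma adjusted p was 0.000197. Me1 shares its protein annotation with 3 other listed entries, which together hold 1.91% as many fragments.

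Idh1 (ENSMUSG00000025950, chr1:65197775-65225659, minus strand), the cytosolic and peroxisomal NADP-dependent isocitrate dehydrogenase, was the other gene below 3 FPKM in every sample. It was at 1.14, 0.683, 0.863, 0.767 and 1.14 FPKM in CD8+4T1 replicates 1 to 5 and at 1.48, 2.74, 2.71, 2.05 and 1.61 in CD8+4T1+NaAc replicates 1 to 5. The highest untreated samples, replicates 1 and 5, stayed below the lowest treated one, and treated replicates 2 and 3 were the highest. From a mean of 0.919 ± 0.213 to 2.12 ± 0.594 FPKM, the log2 fold change was 1.10 (SE 0.21, limma adjusted p = 0.00226), on 33 to 53 fragments without and 70 to 143 with sodium acetate. With 1 FPKM added in place of 0.1 it was 0.69 (adjusted p = 0.00280).

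Idh2 (ENSMUSG00000030541, chr7:79744594-79765140, minus strand), the mitochondrial NADP-dependent counterpart, rose with less spread. Its FPKM were 11.1, 10.4, 10.8, 11.8 and 11.99 in CD8+4T1 and 14.6, 19.1, 15.97, 17.5 and 16.9 in CD8+4T1+NaAc, again in the order of replicates 1 to 5. The groups were clear of each other, with means of 11.2 ± 0.664 and 16.8 ± 1.66 FPKM, a log2 fold change of 0.58 (SE 0.07, limma adjusted p = 0.000179).

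Cs (ENSMUSG00000005683, chr10:128173603-128198348, plus strand), through which acetyl-CoA enters the TCA cycle, rose by a small amount that exceeded the spread. Cs was measured at 42.3, 45.6, 45.3, 45.8 and 45.4 FPKM in CD8+4T1 replicates 1 to 5 and at 47.9, 54.3, 54.3, 55.3 and 51.2 in CD8+4T1+NaAc replicates 1 to 5. Replicate 1 was the lowest in each group, and no untreated value reached the treated ones. The means were 44.9 ± 1.47 and 52.6 ± 3.05 FPKM, a log2 fold change of 0.23 (SE 0.05, limma adjusted p = 0.00480).

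Among the malate dehydrogenases, the cytosolic form rose and the mitochondrial form did not pass the test. Mdh1 (ENSMUSG00000020321, chr11:21506692-21522367, minus strand) was at 53.0, 49.0, 51.2, 50.1 and 46.4 FPKM in CD8+4T1 and at 49.3, 75.6, 75.6, 72.6 and 84.3 in CD8+4T1+NaAc. Treated replicate 1 lay within the untreated range and the other 4 treated samples lay well above it. The log2 fold change was 0.50 (SE 0.12, limma adjusted p = 0.00899) with all samples and 0.62 (adjusted p = 2.52e-05) without that replicate. Wdpcp, on the opposite strand, overlaps Mdh1 and holds 2.72% as many fragments, and whether counting used strand is not given in the sources used here.

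Mdh2 (ENSMUSG00000019179, chr5:135807334-135819252, plus strand) was the most abundant of the 10 in both groups. It was at 80.7, 84.2, 81.5, 84.0 and 81.7 FPKM in CD8+4T1 and at 65.1, 90.4, 84.8, 90.4 and 91.8 in CD8+4T1+NaAc. The untreated samples differed little among themselves, while the treated ones held both the lowest value (replicate 1) and the highest of all 10. The log2 fold change was 0.02 (SE 0.09, limma adjusted p = 0.856), and without treated replicate 1 it was 0.12 (adjusted p = 0.0283).

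The mitochondrial malic enzyme fell while the cytosolic one rose. Me2 (ENSMUSG00000024556), which oxidises malate to pyruvate inside the mitochondria, was at 20.01, 19.89, 19.97, 20.03 and 20.96 FPKM in CD8+4T1 and at 17.1, 15.6, 17.1, 15.3 and 17.7 in CD8+4T1+NaAc. Untreated samples lay close together, above all treated samples. The means were 20.2 ± 0.447 and 16.5 ± 1.05 FPKM, a log2 fold change of -0.29 (SE 0.05, limma adjusted p = 0.00124), which was -0.11 (adjusted p = 0.143) after rescaling to the same total and -0.08 (adjusted p = 0.403) after scaling to T cell markers.

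The aspartate aminotransferases moved in the opposite arrangement, with the cytosolic form lower. Got1 (ENSMUSG00000025190, chr19:43488191-43513044, minus strand), which in the shuttle regenerates oxaloacetate from aspartate in the cytosol, was at 38.8, 40.01, 38.9, 40.5 and 39.6 FPKM in CD8+4T1 and at 31.4, 32.02, 31.4, 28.9 and 32.3 in CD8+4T1+NaAc. Both groups were tight and did not overlap, and replicate 4 was the lowest treated sample. Its means of 39.6 ± 0.730 and 31.2 ± 1.35 FPKM gave a log2 fold change of -0.34 (SE 0.04, limma adjusted p = 0.000157). After rescaling to the same total the Got1 value was -0.17 (adjusted p = 0.0101), and after scaling to T cell markers -0.13 (adjusted p = 0.119).

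Got2 (ENSMUSG00000031672, chr8:96590762-96615175, minus strand), the mitochondrial form that makes aspartate, was at 43.6, 47.3, 48.2, 47.1 and 50.2 FPKM in CD8+4T1 and at 46.2, 62.1, 55.7, 54.4 and 56.5 in CD8+4T1+NaAc. Treated replicate 1 lay among the untreated samples and the other 4 treated samples above all of them. The log2 fold change of 0.21 (SE 0.07) was just past the threshold (limma adjusted p = 0.0451) and was lost on leaving out any single sample other than treated replicate 1 or untreated replicate 5. Without treated replicate 1 it was 0.27 (adjusted p = 0.00225). Got2 shares its protein annotation with 6 other listed entries that together hold 0.867% as many fragments.

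Slc25a11 (ENSMUSG00000014606, chr11:70535022-70538305, minus strand), the carrier that lets malate in and 2-oxoglutarate out, did not pass the test. Slc25a11 FPKM were 29.4, 28.7, 30.2, 26.4 and 27.3 in CD8+4T1 and 26.9, 34.7, 34.4, 33.0 and 35.7 in CD8+4T1+NaAc. As with Mdh1, Mdh2 and Got2, treated replicate 1 was the sample within or below the untreated range. The log2 fold change was 0.21 (SE 0.08, limma adjusted p = 0.0579) with all samples and 0.28 (adjusted p = 0.00109) without it. Rnf167 overlaps Slc25a11 on the opposite strand and holds 54.8% as many fragments, so part of either gene's reads could belong to the other if counting ignored strand.

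Because the samples' scaling moves all genes together, the members were also placed beside the shift of all genes. Under the deposited scaling the median of all genes was -0.02, and Cs (0.23), Got2 (0.21) and Slc25a11 (0.21) lay above it while Me2 (-0.29) and Got1 (-0.34) lay below. After rescaling to the same total, with a median of all genes of 0.15, the values were 2.21 for Me1, 1.27 for Idh1, 0.75 for Idh2 and 0.67 for Mdh1. Cs (0.40), Got2 (0.39) and Slc25a11 (0.39, adjusted p = 0.00243) were then called, and Mdh2 (0.20, adjusted p = 0.0734) was not. After scaling to T cell markers Mdh2 was called too (0.23, adjusted p = 0.0220), where the median of all genes was 0.19 and 32.2% of all genes were called higher. Rescaling shifts all genes of a sample by the same factor, so it leaves their order nearly as it was, and none of the 10 changed sign, as the plot of fold changes by scaling shows.

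**Figure D2:**
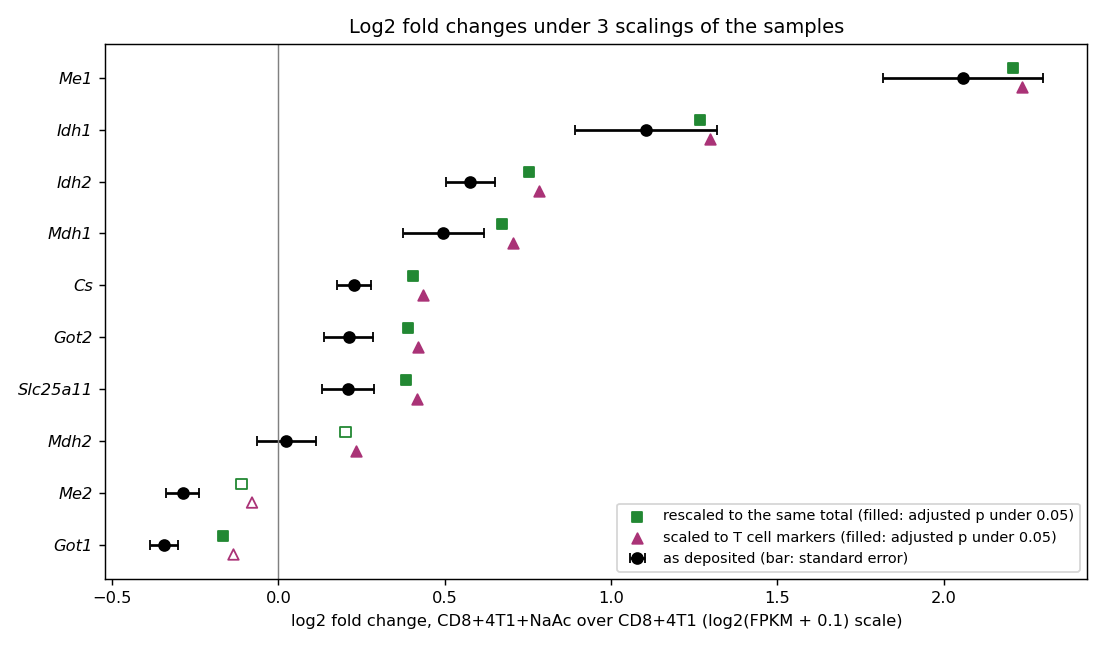
Log2 fold change (CD8+4T1+NaAc over CD8+4T1, log2(FPKM + 0.1) scale) of the 10 genes with samples scaled as deposited (black, bar: standard error), rescaled to the same total (green) or scaled to T cell markers (purple), filled where the adjusted p is under 0.05. Both rescalings move each gene to the right, so Me2 and Got1 move toward 0 and Mdh2 away from it.

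Within a sample, the ratio of a cytosolic form to its mitochondrial form does not depend on how samples are scaled, apart from the effect of the added 0.1 FPKM. The 4 pairs were compared by a two-sided exact permutation test over the 10 samples, in which the smallest p possible is 0.00794, with Benjamini-Hochberg adjustment over the 4 pairs. Ratios of Me1 to Me2 and of Mdh1 to Mdh2 were higher and the ratio of Got1 to Got2 was lower in all 5 treated samples than in any untreated sample.

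Me1 to Me2 changed most. Me1 made up 1.38, 1.33, 1.73, 2.01 and 1.26% of the pair's summed FPKM in CD8+4T1 replicates 1 to 5 and 7.19, 14.8, 8.60, 9.71 and 6.07% in CD8+4T1+NaAc replicates 1 to 5. Me2 thus remained the main malic enzyme transcript in every sample. The mean log2 ratio was -5.62 ± 0.224 and -3.28 ± 0.516 (SD, n = 5), a difference of 2.34 (exact permutation p = 0.00794, adjusted p = 0.0106), which was 1.28 with 1 FPKM added in place of 0.1.

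For the malate dehydrogenases the cytosolic share was 39.6, 36.8, 38.6, 37.4 and 36.2% in CD8+4T1 and 43.1, 45.6, 47.1, 44.5 and 47.9% in CD8+4T1+NaAc. Treated replicate 1, which overlapped the untreated samples in Mdh1 alone and fell below them in Mdh2, was above them in this ratio. The mean log2 ratio of Mdh1 to Mdh2 went from -0.723 ± 0.0849 to -0.252 ± 0.111, a difference of 0.47 (exact permutation p = 0.00794, adjusted p = 0.0106).

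For the aminotransferases, Got1 made up 47.1, 45.8, 44.7, 46.3 and 44.1% of the pair in CD8+4T1 and 40.5, 34.02, 36.1, 34.7 and 36.4% in CD8+4T1+NaAc. The mitochondrial form was already the more abundant in every untreated sample. Its excess was larger in every treated sample, least so in treated replicate 1. The mean log2 ratio of Got1 to Got2 was -0.255 ± 0.0709 and -0.810 ± 0.155, a difference of -0.56 (exact permutation p = 0.00794, adjusted p = 0.0106).

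The isocitrate dehydrogenases overlapped. Idh1 made up 9.38, 6.17, 7.38, 6.11 and 8.66% of the pair in CD8+4T1 and 9.16, 12.5, 14.5, 10.5 and 8.70% in CD8+4T1+NaAc. Treated replicates 1 and 5 lay within the untreated range and replicates 2, 3 and 4 above it. The log2 ratio of Idh1 to Idh2 differed by 0.53 (exact permutation p = 0.0397, adjusted p = 0.0397), but the call was lost when any of replicates 2, 3 or 4 of either group was left out (0.41 to 0.54, exact permutation, adjusted p = 0.0794 each) and when 1 FPKM was added in place of 0.1 (0.14, adjusted p = 0.278).

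**Figure D3:**
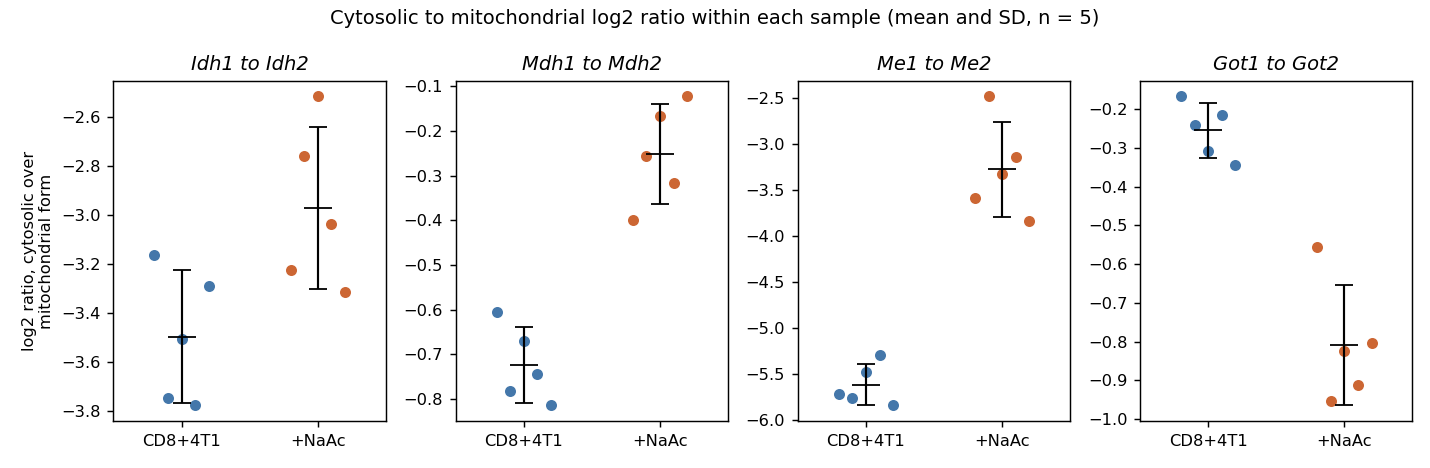
Log2 ratio of the cytosolic to the mitochondrial form of each pair in each sample (blue, CD8+4T1; orange, CD8+4T1+NaAc; black lines, mean and SD, n = 5 per group), each panel on its own axis, which does not start at 0. Idh1 to Idh2 overlaps between groups, Mdh1 to Mdh2 and Me1 to Me2 are higher and Got1 to Got2 is lower in every treated sample.

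The order of the levels changed in the middle, while the highest 4 and the lowest 2 genes kept their places. Without sodium acetate the mean FPKM ran from Mdh2 (82.4) through Mdh1 (49.9), Got2 (47.3), Cs (44.9), Got1 (39.6), Slc25a11 (28.4), Me2 (20.2), Idh2 (11.2) and Idh1 (0.919) to Me1 (0.315). In this order only Mdh1 with Got2 and Got2 with Cs overlapped in their values over samples. With sodium acetate, Slc25a11 (32.9) stood above Got1 (31.2) and Idh2 (16.8) beside Me2 (16.5), and both pairs overlapped, as did Mdh2 with Mdh1, Mdh1 with Got2, Got2 with Cs and Idh1 with Me1. Idh2 was above Me2 in 2 of the 5 treated samples and in none of the untreated ones.

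The other genes of these routes were taken from 6 lists by textbook role, drawn up with earlier results of these data known. They were 52 genes in all, of which 48 passed the level filter. Of the 48, 10 rose and 9 fell (limma adjusted p under 0.05), a share near the 36.5% of all genes, and 14 had groups that did not overlap, near the 26.4% of all genes. The median log2 fold change was -0.04, close to that of all genes. Without CD8+4T1+NaAc replicate 1, 14 rose and 10 fell, beside 21.6% and 22.7% of all genes tested. Leaving out each sample in turn gave 6 to 14 higher and 5 to 10 lower. With samples rescaled to the same total, 22 passed as higher and 3 as lower, beside 31.2% and 8.83% of all genes. A list of 7 mitochondrial carriers, all tested, held Slc25a12, Slc25a13 and Slc25a1 of the malate-aspartate and citrate shuttles. It also held the other carriers Slc25a10, Slc25a18, Slc25a22 and Ucp2. In the whole list 5 rose and none fell, with a median of 0.28. With samples rescaled to the same total, 6 passed as higher and none as lower. Of the shuttle carriers Slc25a13 and Slc25a1 rose, and the larger rises were those of Slc25a10, Slc25a18 and Ucp2. Slc25a13, an aspartate-glutamate carrier, rose from 4.57 ± 0.223 to 5.55 ± 0.669 FPKM (log2 fold change 0.27, SE 0.08, limma adjusted p = 0.0266). Its relative Slc25a12 was at 9.71 ± 0.392 and 10.7 ± 1.06 FPKM (0.14, SE 0.07, adjusted p = 0.143), and was called after rescaling to the same total (0.32, adjusted p = 0.00464) and on T cell markers (0.35, adjusted p = 0.00196). Slc25a1, which exports citrate to the cytosol, rose from 13.9 ± 0.661 to 16.9 ± 1.68 FPKM (0.28, SE 0.07, adjusted p = 0.00874). Slc25a18, a glutamate carrier, had the largest rise of the list (0.97, SE 0.34, adjusted p = 0.0474). It was at 0.326 ± 0.103 and 0.772 ± 0.373 FPKM with overlapping groups and only 6 to 43 fragments per sample. Its untreated mean was below the 0.5 FPKM of the level filter, which Slc25a18 passed only through its treated samples. Its call, its rank and its place among the 5 risers are therefore description only. The remaining risers, named after their values were seen, were Slc25a10, the dicarboxylate carrier (0.58, adjusted p = 0.000632), and Ucp2, an inner membrane carrier of the uncoupling protein family, which went from 86.0 ± 3.70 to 134.5 ± 11.8 FPKM (0.64, adjusted p = 5.9e-05).

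Among 15 other TCA cycle enzymes, all tested, none rose and 4 fell, beside 17.6% higher and 19.0% lower of all genes. The median log2 fold change of the 15 was -0.10. Dld, a subunit shared by the 2-oxoglutarate and pyruvate dehydrogenase complexes, had the largest fall of the list (-0.38, SE 0.06, adjusted p = 0.000581). For Dld the value was -0.21 (adjusted p = 0.0357) after rescaling to the same total, and the call was lost on T cell markers (-0.17, adjusted p = 0.174). Idh3a, of the NAD-dependent isocitrate dehydrogenase, was at 17.9 ± 0.373 and 17.3 ± 0.474 FPKM (-0.05, SE 0.04, adjusted p = 0.333). For Idh3a the value was 0.13 (adjusted p = 0.0376) after rescaling to the same total and 0.16 (adjusted p = 0.0674) on T cell markers. Both lay below the medians of all genes, 0.15 and 0.19. Further falls, named after their values were seen, were those of Sdha (-0.27) and Sdhb (-0.29), subunits of succinate dehydrogenase, and neither was called after rescaling to the same total (-0.09 and -0.11, adjusted p = 0.242 and 0.258) or on T cell markers (-0.06 and -0.08, adjusted p = 0.619 and 0.429). After rescaling to the same total 5 of these 15 were called higher and 1 lower, near the 31.2% and 8.83% of all genes. On T cell markers 4 were higher and 0 lower, beside 32.2% and 6.66% of all genes.

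Of 11 further enzymes acting on citrate, malate, oxaloacetate or glutamate, 8 were tested, none rose and 1 fell, beside 17.6% higher and 19.0% lower of all genes. With samples rescaled to the same total 2 passed as higher and none as lower, beside 31.2% and 8.83% of all genes. Acly, which cleaves exported citrate to acetyl-CoA, was at 44.0 ± 1.68 and 47.7 ± 1.77 FPKM (0.12, SE 0.04, limma adjusted p = 0.0607). Acly passed as higher after rescaling to the same total (0.29, adjusted p = 0.000729), on T cell markers (0.33, adjusted p = 0.000921) and by median-ratio scaling (0.12, adjusted p = 0.0479). Aco1, the cytosolic aconitase, was at 10.9 ± 0.334 and 9.998 ± 1.02 FPKM (-0.13, SE 0.07, adjusted p = 0.189). Pck2, the mitochondrial phosphoenolpyruvate carboxykinase, fell from 13.6 ± 0.886 to 11.4 ± 1.21 FPKM (-0.25, SE 0.08, adjusted p = 0.0280), and its call was lost at -0.07 (adjusted p = 0.457) after rescaling to the same total. Me3, the other mitochondrial malic enzyme, was below the level filter with 0 to 1 fragments in untreated and 1 to 11 in treated samples.

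Cytosolic NADH can also be reoxidised by the glycerol phosphate shuttle and by lactate dehydrogenase. Of 5 such genes 1 rose and 3 fell, beside 17.6% higher and 19.0% lower of all genes. With samples rescaled to the same total 1 passed as higher and 1 as lower, beside 31.2% and 8.83% of all genes. Gpd1l, a cytosolic glycerol phosphate dehydrogenase, rose from 2.42 ± 0.259 to 4.56 ± 0.679 FPKM (0.88, SE 0.11, limma adjusted p = 0.000224). Gpd1, the other cytosolic form, fell at low levels from 0.689 ± 0.139 to 0.380 ± 0.0821 FPKM (-0.72, SE 0.25, adjusted p = 0.0434). Its treated mean was below the 0.5 FPKM of the level filter, which Gpd1 passed only through its untreated samples, so this call is description only. The mitochondrial form Gpd2 fell from 20.1 ± 0.582 to 16.3 ± 1.07 FPKM (-0.31, SE 0.05, adjusted p = 0.00102), a call lost after rescaling to the same total (-0.13, adjusted p = 0.120), as was that of Gpd1 (-0.57, adjusted p = 0.109). Ldha, named after its values were seen, was the third that fell (-0.67), and it was still called after both rescalings (-0.49 and -0.46).

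Of 8 other sources of NADPH, 7 were tested, 2 rose and 1 fell, beside 17.6% higher and 19.0% lower of all genes. Under either rescaling 4 passed as higher and 1 as lower. Of all genes, 31.2% were higher and 8.83% lower at the same total, and 32.2% and 6.66% on T cell markers. H6pd, the hexose phosphate dehydrogenase of the endoplasmic reticulum, rose from 4.15 ± 0.479 to 7.07 ± 1.12 FPKM (0.75, SE 0.11, limma adjusted p = 0.000550). Mthfd2, of mitochondrial folate metabolism, fell from 65.0 ± 4.64 to 45.9 ± 4.25 FPKM (-0.50, SE 0.07, adjusted p = 0.000473). Nadk, the NAD kinase, was the other that rose and was named after its values were seen (0.11, adjusted p = 0.0479). Of 6 enzymes that consume aspartate, 2 rose, beside 17.6% of all genes. Under either rescaling 4 passed as higher, beside 31.2% of all genes at the same total and 32.2% on T cell markers. As deposited, Adss, of AMP synthesis, had the largest rise (0.15, SE 0.04, adjusted p = 0.0144), and 0.33 after rescaling to the same total, with a median of all genes of 0.15. Cad, which starts pyrimidine synthesis, was the other (0.13, adjusted p = 0.0487, and 0.31 after rescaling to the same total), named after its values were seen.

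**Figure D4:**
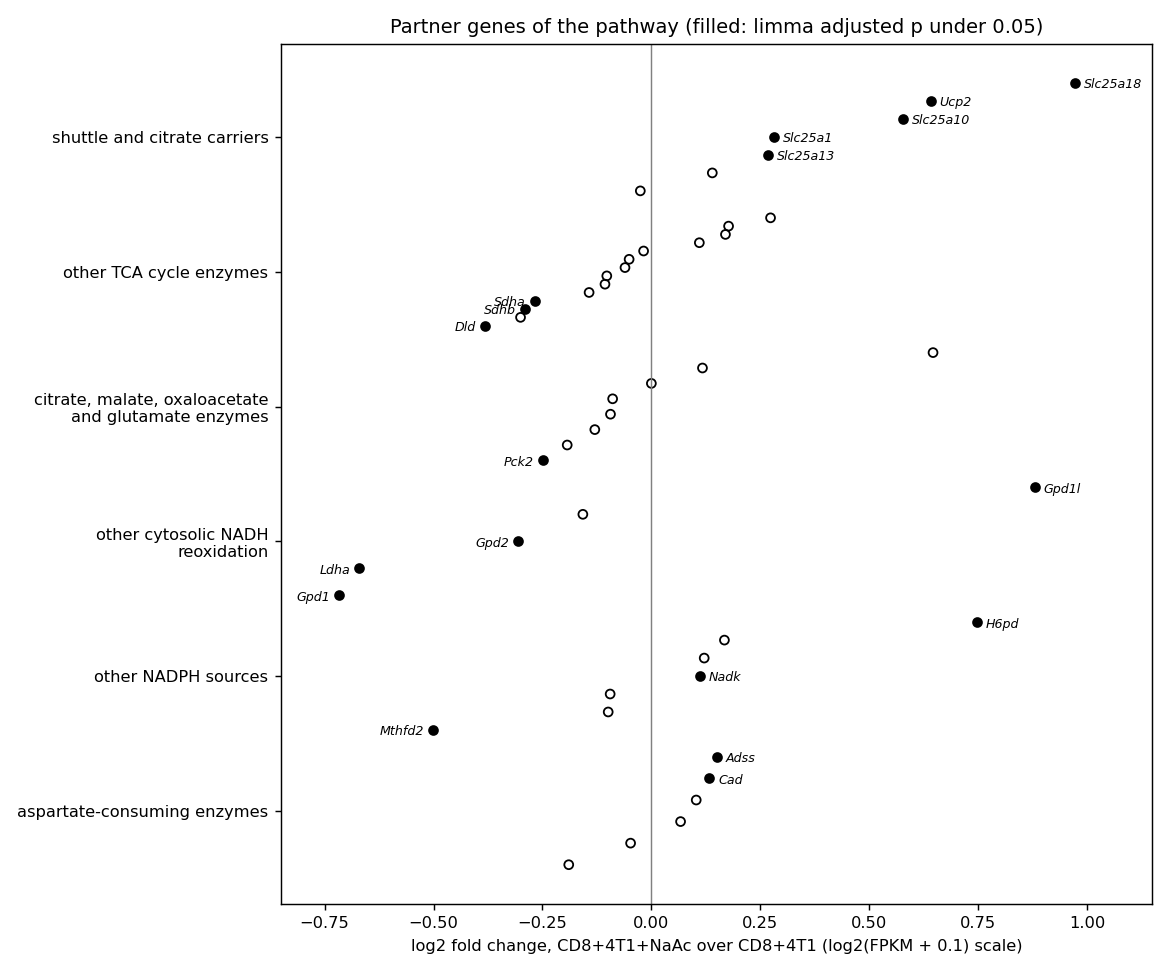
Log2 fold change (CD8+4T1+NaAc over CD8+4T1, log2(FPKM + 0.1) scale) of tested partner genes in 6 lists, each point a gene, filled and named where the limma adjusted p is under 0.05. The carriers have 5 filled points on the right and none on the left, and the TCA cycle enzymes plotted have filled points (Dld, Sdha, Sdhb) on the left and none on the right.

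Markers of other cells moved with the groups too. Of 20 epithelial and 4T1 markers, 11 passed the level filter, 7 rose and 1 (Lgals7) fell, with a median log2 fold change of 0.95. Their summed FPKM were 54.0, 69.0, 64.3, 72.9 and 66.3 in CD8+4T1 replicates 1 to 5 and 118, 226, 156, 181 and 113 in CD8+4T1+NaAc replicates 1 to 5. Krt8, a keratin, was at 3.42 ± 1.69 and 34.2 ± 13.1 FPKM, and Lcn2, a secreted lipocalin, at 3.99 ± 1.47 and 40.2 ± 16.4. Epcam, an epithelial adhesion molecule, was at 0.519 ± 0.229 and 0.699 ± 0.179 FPKM with overlapping groups (limma adjusted p = 0.305), and Krt5 was at 0 in every treated sample. The treated samples had the same order in Me1 as in this sum, from replicate 5 through 1, 3 and 4 to 2. In the untreated samples the orders differed, with replicate 4 the highest in both but replicate 1 the lowest in the sum and replicate 5 in Me1. There Idh1 was highest in replicate 1, where the sum was lowest. Among the treated samples Idh1 was highest in replicate 2 and lowest in replicates 1 and 5, as was the sum. Got1, which fell, showed no such order. The part of this marker list in the changes of the 10 genes was not tested.

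**Figure D5:**
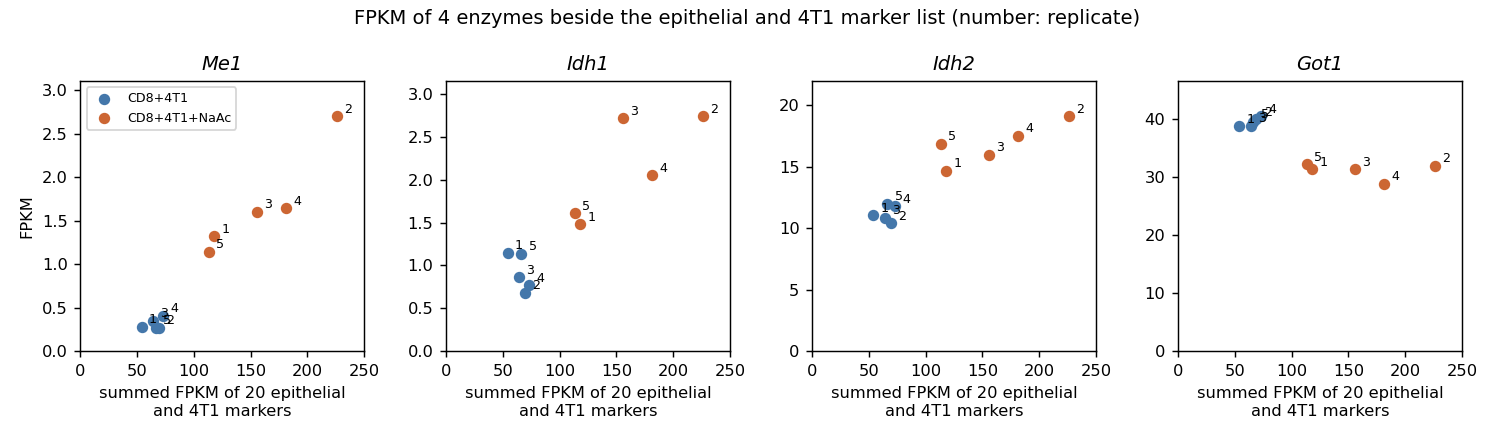
FPKM of Me1, Idh1, Idh2 and Got1 against the summed FPKM of 20 epithelial and 4T1 markers in each sample (blue, CD8+4T1; orange, CD8+4T1+NaAc; the number is the replicate), with vertical axes from 0. All treated samples have a sum of 113 or more and all untreated ones of 72.9 or less, so group and marker sum cannot be told apart.

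The other lists held markers of T cells and of blood and stromal cells. Of 12 T cell markers, all tested, 7 fell and 1 (Zap70, a receptor-proximal kinase) rose, with a median of -0.28 and summed FPKM of 937 to 1054 without and 784 to 958 with sodium acetate. Cd3e, a subunit of the T cell receptor complex, fell from 33.8 ± 1.07 to 26.3 ± 2.06 FPKM (-0.36, limma adjusted p = 0.000608), while Cd8a did not pass the test (-0.04, adjusted p = 0.559). Of 10 myeloid markers 4 were tested and 2 rose, with sums of 25.4 to 35.8 and 28.7 to 34.5 FPKM and S100a9 at 0 throughout. Of 8 fibroblast and endothelial markers 3 were tested and 2 rose, with sums of 7.94 to 9.02 and 13.1 to 14.8 FPKM. Of 6 B cell markers 2 were tested and none was called, with sums of 3.93 to 4.91 and 4.55 to 6.28 FPKM. Of 4 CD4 T cell and NK cell markers, Cd4 alone was tested and rose from 0.541 ± 0.169 to 1.60 ± 0.187 FPKM (1.44, adjusted p = 0.000317). The part of these lists in the results was not tested.

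Genes that varied most like the member with the largest rise and the one with the largest fall within the groups were sought among protein-coding genes that averaged 5 FPKM or more, by Pearson's r of the deviations from the group means over 10 samples. For Me1, the 3 closest of 7053 genes were Grn (0.96), Fbxo2 (0.95) and Spint2 (0.94). The log2 fold changes between groups, which this measure leaves out, were 1.04, 0.92 and -0.11 for these genes. For Got1, the 3 closest of 7052 genes were Pierce1 (0.93), Sigirr (0.92) and Eml1 (0.91), with log2 fold changes between groups of -1.18, -0.44 and 0.58. These values describe likeness among the same libraries and carry no p.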

How the data were processed

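The authors deposited FPKM for each gene and sample, with gene length (an other, unnormalized column), position and biotype. The submitters' processing notes name fastp, HISAT2 2.0.5, StringTie 1.3.3b and featureCounts 1.5.0-p3, and the study's methods name DESeq2 for its tests. The genome build, annotation and strand setting are not given in the sources used here. FPKM times length gave whole fragments for 100% of values in every sample (within 0.1), from which depth was taken. FPKM are not counts, so the genes that averaged 0.5 FPKM or more (15710 of 57825) were compared by limma 3.58.1 (R 4.3.3, variance trend and robust moderation) on log2(FPKM + 0.1), with Benjamini-Hochberg adjustment over all of them and calls at an adjusted p under 0.05. That step was also run on simulated data, whose outcome is not given here. Cytosolic to mitochondrial ratios were compared by exact permutation with scipy 1.17.1, and figures were drawn with matplotlib 3.10.9.

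The members, gene lists and named genes were chosen with earlier results of these data known. Genes named are the 10 members, partner genes fixed by name (Slc25a12, Slc25a13, Slc25a1, Aco1, Idh3a, Me3, Acly, Gpd2 and 1 that is not reported here), the called gene with the largest rise and fall of each partner list, 5 markers fixed by name (Krt8, Lcn2, Epcam, Cd8a, Cd3e) and the 3 genes closest to the members with the largest rise and fall. Slc25a10, Ucp2, Sdha, Sdhb, Ldha, Nadk and Cad, and the markers Krt5, Lgals7, Zap70, S100a9 and Cd4, are outside this rule and were named after their values were seen. Promoters came from RefSeq (GRCm38.p6), which matched 9 of the 10 members. Alternatives changed the pseudocount, level filter, scaling, moderation, sample weights, block, test, gene set, threshold and samples.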

Additional observations from a re-analysis of the deposited data

Results flagged for a closer look

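In 34 groups of 5 values, the gap of the extreme sample to its nearest neighbour, as a share of the group's range, was compared with Dixon's critical value of 0.71, which chance passes in about 1.7 of 34 groups. It was passed in 7 groups. CD8+4T1+NaAc replicate 1 was set apart as the lowest of its group in Mdh1 (0.721), Mdh2 (0.772), Slc25a11 (0.725) and the summed FPKM of the 10 genes (0.793). CD8+4T1+NaAc replicate 4 was set apart as the lowest in Got1 (0.748). In the untreated group, replicate 1 was set apart as the lowest in Cs (0.858) and replicate 5 as the highest in Me2 (0.870), each within a narrow range.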

How the results depend on the processing

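Of the alternative values computed, 210 of the members' fold changes, 52 of the pair ratios and 81 of the counts stayed on the same side of their threshold or within 1.5 times. Of the others, 14 fold changes lost and 11 gained a call, 3 changed sign, 8 ratios lost a call and 15 counts moved further. Slc25a11 was called with voom (adjusted p = 0.0458), sample weights (0.00177), protein-coding genes alone (0.0397) and a filter at 5 FPKM (0.0446), and Got2 lost its call with no level filter (0.0813) and without trend and robust moderation (0.0673). The number of members called lower went from 2 to 1 after rescaling to the same total and to 0 after scaling to T cell markers. Partner genes called higher were 6 with no level filter, 22 after rescaling to the same total, 20 after scaling to T cell markers and 5 at an adjusted p under 0.01, and those called lower were 3, 2 and 5 under the last 3 of these, against 10 and 9 as reported. Of all genes, 31.2% were higher and 8.83% lower after rescaling to the same total, and 32.2% and 6.66% after scaling to T cell markers. The Idh1 to Idh2 ratio lost its call with 1 FPKM added (0.14) and without the samples numbered 1 of both groups (0.67). When each sample was left out in turn, members called higher ranged from 5 to 8 and those called lower stayed at 2, partner genes from 6 to 14 higher and 5 to 10 lower, and the Idh1 to Idh2 ratio from 0.41 to 0.61. Partner genes called higher were 6 without CD8+4T1 replicate 2 or 3 or CD8+4T1+NaAc replicate 2, and those called lower 5 without CD8+4T1 replicate 2, 4 or 5. The Mdh2 fold change ran from -0.0084 to 0.12, and was below 0 without CD8+4T1+NaAc replicate 2, 4 or 5. Scaling shifts all genes together; the cause of the other shifts was not tested.

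Deviations from the group means correlated at 0.04, -0.01, -0.03, 0.07 and 0.01 between samples of the same replicate number (1 to 5), so the numbers were not taken as pairs. With the replicate number as a block, 6 members were called higher and 2 lower, and 9 partner genes higher and 8 lower; the block changed no member's call. Samples 1 and 4 alone correlated best with their own number. Genes of low level, Me1 and Idh1 above all, are limited by few fragments per untreated sample, 17 to 26 for Me1 and 33 to 53 for Idh1.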
